A study of Homo sapiens with 4 samples.

Results

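HOX genes encode homeodomain transcription factors that set the identity of body segments along the head-to-tail axis of the embryo. They were found here by symbol, as every gene named HOXA, HOXB, HOXC or HOXD with a number, which gave 40 of the 57879 genes in the deposited tables. The 40 genes carry 39 symbols, since HOXC4 is listed under 2 gene identifiers. RNAseq had been performed on T24 cells, a human urinary bladder carcinoma line. The control cells, labelled control and called EV here, carried an empty vector, and the TET1-CD cells stably expressed a FLAG-tagged catalytic domain of TET1 cloned into the pCDH vector. TET1 is a dioxygenase that oxidises 5-methylcytosine to 5-hydroxymethylcytosine, and the cloned part lacks the rest of the protein. Each group held 2 libraries of cells grown in RPMI with serum. By the study's methods the medium held penicillin and streptomycin, and stable lines were made with lentivirus and selected with puromycin. The labels do not say whether the 2 libraries of a group came from separate cultures, so the p-values measure only the spread between these libraries, which may be technical.

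The human genome holds 4 HOX clusters, HOXA on chromosome 7, HOXB on chromosome 17, HOXC on chromosome 12 and HOXD on chromosome 2. Within a cluster the genes stand in the order in which they act along the body, from the anterior members of low number to the posterior members of high number, and genes of the same number in different clusters are called paralogues. In many adult cells a cluster is held in part by Polycomb proteins and in part kept active, and HOX proteins act together with PBX and MEIS cofactors. The members are described here as anterior (paralogue groups 1 to 3), central (4 to 8) and posterior (9 to 13).

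The libraries held 17442143 to 20295266 estimated fragments, with overlap between the groups. TET1 itself had 111 and 83 estimated counts in replicates 1 and 2 of EV and rose to 2939 and 3310 in those of TET1-CD, which is 5.02 on the log2 scale (SE, the standard error, 0.08; adjusted p = 4.9e-10 by the quasi-likelihood test of edgeR). Counts of the cloned domain and of the endogenous transcript cannot be told apart in these tables. Of 12 urothelial and epithelial markers, 4 (KRT7, KRT8, KRT18 and PPARG) had over 100 counts in every library, and 4 (CDH1, UPK3A, UPK1B and KRT5) had at most 3, while the mesenchymal markers VIM, CDH2 and ZEB1 were all over 100. Some of these markers moved with the groups. By edgeR, VIM was lower in TET1-CD cells (log2 fold change -0.39, adjusted p = 0.00232), and KRT7 (0.34, 0.00175), KRT18 (0.18, 0.0414), KRT19 (1.01, 0.00273) and GATA3 (1.25, 0.0163) were higher. ZEB1 (0.09, 0.486), CDH2 (-0.04, 0.673), KRT8 (-0.08, 0.338), PPARG (0.10, 0.465) and EPCAM (0.54, 0.107) did not pass the edgeR test. The summed FPKM of the 12 epithelial markers was 1426 to 1476 in EV and 1619 to 1654 in TET1-CD libraries. That of the 3 mesenchymal markers was 1752 to 1889 and 1400 to 1435. Most of the mesenchymal sum was VIM alone, with 1692 and 1837 FPKM in EV and 1344 and 1374 in TET1-CD libraries. Most of the epithelial sum was KRT7, KRT8 and KRT18. The sums therefore do not show a shift of whole lists. The libraries thus held the keratins KRT7, KRT8 and KRT18 but little or no E-cadherin (CDH1), UPK3A or UPK1B. No reference profile of T24 was compared. All 4 leukocyte markers had at most 3 counts. Of the 4 fibroblast markers DCN, LUM, COL1A1 and COL1A2, COL1A1 alone had more than 4 counts in any library, with 88 and 70 counts under EV against 266 and 314 under TET1-CD, and the summed FPKM of the list was at most 1.5 in EV libraries, with 4.37 and 3.45 under TET1-CD. The part of these markers in the HOX results was not tested. The endothelial genes VWF and CDH5 had at most 6 and 22 counts. The RNA is from bulk samples, in which fewer cells of a type and less RNA per cell cannot be told apart.

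Promoter sequences are shown for HOXA13, HOXA7, HOXA3 and HOXD11, which are the members with an adjusted p under 0.05 below that had an entry in the RefSeq promoter table, because the substrate of TET1, 5-methylcytosine, occurs mostly at CpG dinucleotides. Each runs 5′ to 3′ on the minus strand for the HOXA genes and on the plus strand for HOXD11, from 250 bases before a RefSeq start site to 50 after it. CpG dinucleotides are in capitals. The RefSeq table is built on GRCh38.p14, and each sequence was located once on GRCh37, the build of the deposited tables. The HOXA13 sequence lies at chr7:27239661-27239960 and the HOXA7 sequence at chr7:27196245-27196544. The HOXA3 sequence lies at chr7:27153412-27153711 and the HOXD11 sequence at chr2:176971758-176972057.

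HOXA13: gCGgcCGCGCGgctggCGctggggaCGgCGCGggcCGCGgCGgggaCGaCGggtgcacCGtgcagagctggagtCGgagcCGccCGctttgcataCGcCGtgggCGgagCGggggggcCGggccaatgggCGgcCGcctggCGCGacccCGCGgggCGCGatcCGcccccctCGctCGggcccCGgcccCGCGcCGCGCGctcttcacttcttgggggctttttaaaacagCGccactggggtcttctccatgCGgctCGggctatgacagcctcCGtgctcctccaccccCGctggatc

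HOXA7: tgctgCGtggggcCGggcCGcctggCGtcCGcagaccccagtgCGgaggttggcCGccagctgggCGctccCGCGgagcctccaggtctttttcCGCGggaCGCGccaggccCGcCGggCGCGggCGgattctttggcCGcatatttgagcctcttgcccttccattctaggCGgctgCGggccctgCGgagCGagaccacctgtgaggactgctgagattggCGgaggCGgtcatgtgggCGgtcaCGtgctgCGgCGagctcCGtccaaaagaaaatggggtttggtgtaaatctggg

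HOXA3: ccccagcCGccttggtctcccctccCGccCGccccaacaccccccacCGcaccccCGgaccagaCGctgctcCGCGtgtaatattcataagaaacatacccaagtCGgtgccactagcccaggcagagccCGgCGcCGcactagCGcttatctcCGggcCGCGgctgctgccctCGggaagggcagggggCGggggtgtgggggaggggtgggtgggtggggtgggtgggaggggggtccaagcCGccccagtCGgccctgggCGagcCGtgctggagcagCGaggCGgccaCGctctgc

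HOXD11: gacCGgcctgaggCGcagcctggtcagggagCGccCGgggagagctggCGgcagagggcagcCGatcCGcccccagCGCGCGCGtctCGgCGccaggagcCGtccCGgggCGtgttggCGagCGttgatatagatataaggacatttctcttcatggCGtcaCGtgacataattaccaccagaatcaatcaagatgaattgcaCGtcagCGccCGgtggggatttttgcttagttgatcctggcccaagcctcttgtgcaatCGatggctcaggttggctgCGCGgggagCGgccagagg

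The HOXA13 promoter held 44 CpG in its 300 bases, and 4.19% of the 35116 promoters in the RefSeq table hold as many. The HOXA7 promoter held 31 CpG, which 20.7% of all promoters reach, and its start site is that of the transcript that carried most HOXA7 counts, ENST00000242159. The HOXD11 promoter held 27 CpG (28.2% of all promoters reach this) and belongs to the less abundant HOXD11 transcript, ENST00000249504. HOXA3 has 7 start sites in the table, with 0 to 29 CpG. The one printed held 25 CpG (32.0% of all promoters reach this) and belongs to the short transcript ENST00000522456. The table holds 27 HOX entries, which cover 20 of the 39 symbols. HOXA3 has 7 of them, and HOXC4 and HOXC5 share the same window. Over the 26 distinct windows the median was 22.5 CpG, beside 14 over all promoters, and over the 19 that are not of HOXA3 it was 24. The motif CCAAT stood in 65.38% of the 26 HOX windows (84.21% without HOXA3) and in 34.61% of all promoters. TATAAA stood in 19.23% and 11.53%, and TGATNNAT, a PBX and HOX type of motif, in 11.54% and 7.398%. All 3 were searched on both strands, and none contains another. The HOXA13 and HOXA7 sequences above each hold a CCAAT, and the HOXD11 sequence holds a TGATNNAT. A match is a description of the sequence only. Promoters of HOXC10, HOXB6, HOXC13, HOXB7, HOXB3 and HOXD9 are not shown here. DNA methylation was not measured in these data.

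**Figure D1:**
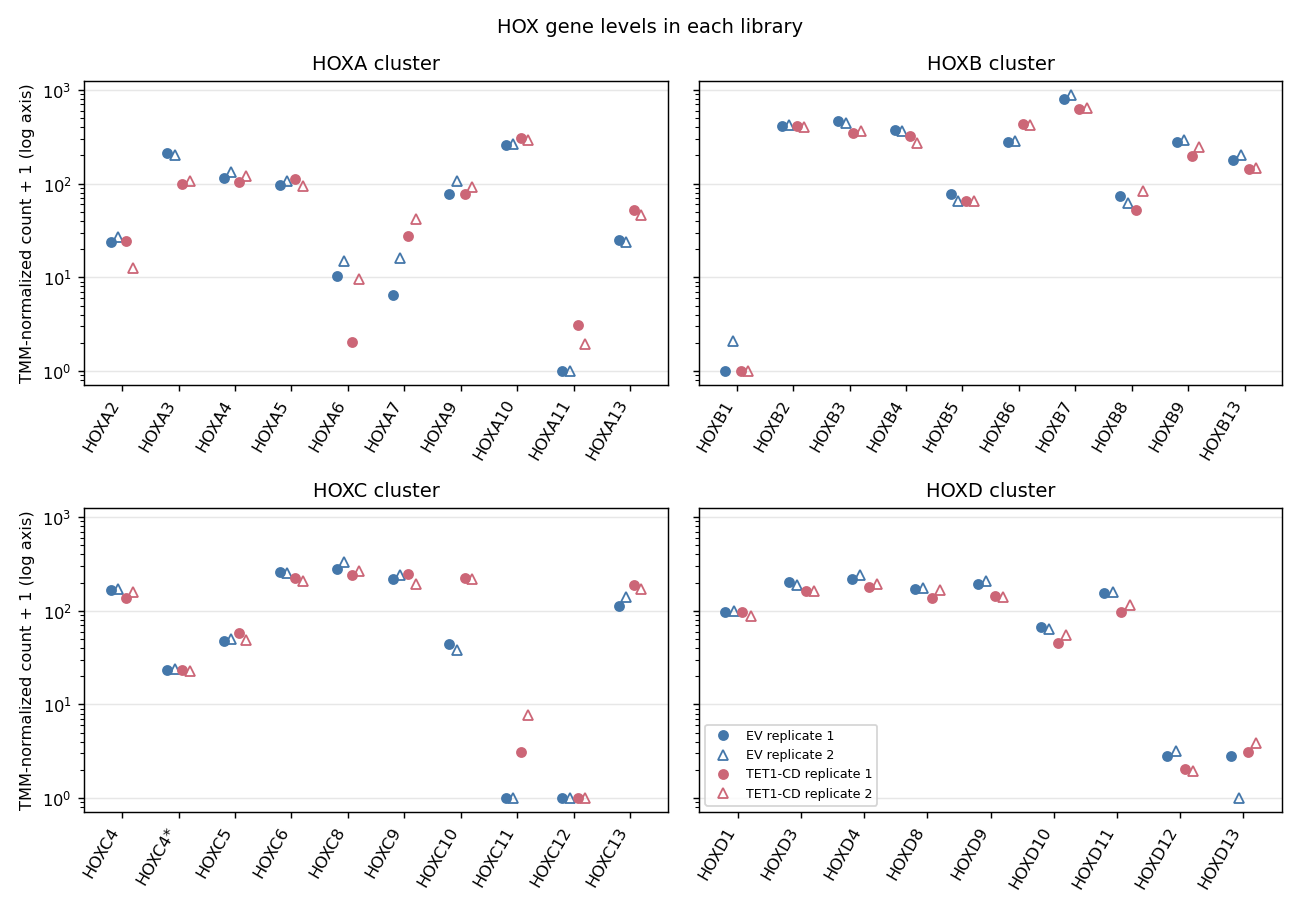
Level of 39 of the 40 HOX genes as TMM-normalized count plus 1 on a log axis, in 4 panels for the 4 clusters, with genes ordered by paralogue number. Blue marks are EV and red marks TET1-CD libraries, circles replicate 1 and triangles replicate 2; HOXC4* is the second identifier of HOXC4. HOXC10 rose from 40.0 to 219 on average. The groups overlapped in 11 of the 33 tested members, beside 5686 of the 14573 genes tested.

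T24 cells expressed most HOX genes. Per length, as mean FPKM of the EV libraries, 15 members were above 5, 14 between 1 and 5, and 11 below 1. HOXB7, a central HOXB gene, led with 31.0 and 34.5 FPKM in EV and 24.4 and 25.3 in TET1-CD libraries, followed in EV by HOXB2 with a mean of 11.98. HOXD4 (8.28), HOXC9 (8.04) and HOXB6 (7.92) came next, and these 3 neighbours were closer to each other than their own 2 EV libraries were. HOXC12 was listed at 0 in all libraries, and HOXB1, HOXA11, HOXD12 and HOXD13 had at most 3 counts in each. HOXA6 had 10, 13, 1 and 9 counts and HOXC11 0, 0, 2 and 7, in the order EV replicates 1 and 2 and TET1-CD replicates 1 and 2, which is used throughout. These 7 members had too few counts for a test, and 33 were tested among 14573 genes.

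Total HOXA, HOXB and HOXD counts were lower in TET1-CD cells and total HOXC counts were higher, without a test. Summed over all members, tested or not, and TMM-normalized, HOXD had 1098 and 1123 counts under EV against 861 and 917 under TET1-CD, and its mean decreased by 19.95%. HOXB, the cluster with the highest sum, went from 2967 ± 79.4 (SD, n = 2) to 2609 ± 27.3 (SD, n = 2), a log2 ratio of -0.19. HOXA went from 999 ± 42.1 to 947 ± 18.2 (SD, n = 2 each), a log2 ratio of -0.08. HOXC was the only sum that was larger in TET1-CD cells, with 1193 ± 67.0 against 1306 ± 34.1 (SD, n = 2 each), a log2 ratio of 0.13. The groups did not overlap in any of the 4 sums, though for HOXA the nearest libraries stood at 969 (EV) and 960 (TET1-CD). Of all genes tested, 30.8% had both TET1-CD libraries above both EV libraries, and 30.2% had both below. With 2 libraries against 2, an exact permutation test cannot give a two-sided p below 1 in 3, so no test was made of the sums. Within the HOXC sum, HOXC10 made up 3.79% and 2.96% under EV against 16.7% and 16.9% under TET1-CD. Its mean normalized count went from 40.0 to 219, a larger rise than that of the whole HOXC sum. The other HOXC members together therefore did not rise. The sum over all 4 clusters went from 6269 to 5751, a log2 ratio of -0.12.

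**Figure D2:**
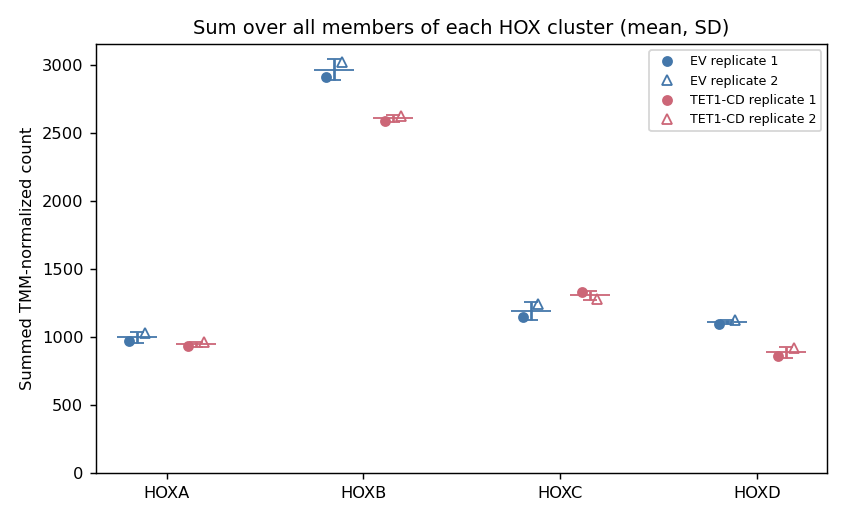
TMM-normalized counts summed over all members of each HOX cluster, on a linear axis from 0. Points are the 2 EV (blue) and 2 TET1-CD (red) libraries, and the dash and bar are the mean and SD (n = 2). HOXD fell from 1111 to 889. HOXC was the only cluster with a larger sum in TET1-CD cells, and HOXC10 alone rose by more than that sum did.

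Across the 33 tested members, 9 had a higher and 24 a lower estimate under TET1-CD. The median of their log2 fold changes was -0.13, beside 0.001 over all genes tested. A gene was called a DEG when its adjusted p was under 0.05 and its fold change at least 2. HOXC10, HOXA7 and HOXA13 were called higher, which is 3 of 33 members (9.09%) where 2.72% of all genes tested were called higher. HOXA3 was called lower, 1 of 33 (3.03%) where 1.04% of all genes were. By adjusted p alone, 5 members rose and 5 fell (15.2% each), beside 10.0% and 9.61% of all genes. Both TET1-CD libraries lay above both EV libraries in 6 members (18.2%), against 30.8% of all genes, and below them in 16 (48.5%), against 30.2%. The filter on low counts decides which members enter these counts, and they are given as a description.

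**Figure D3:**
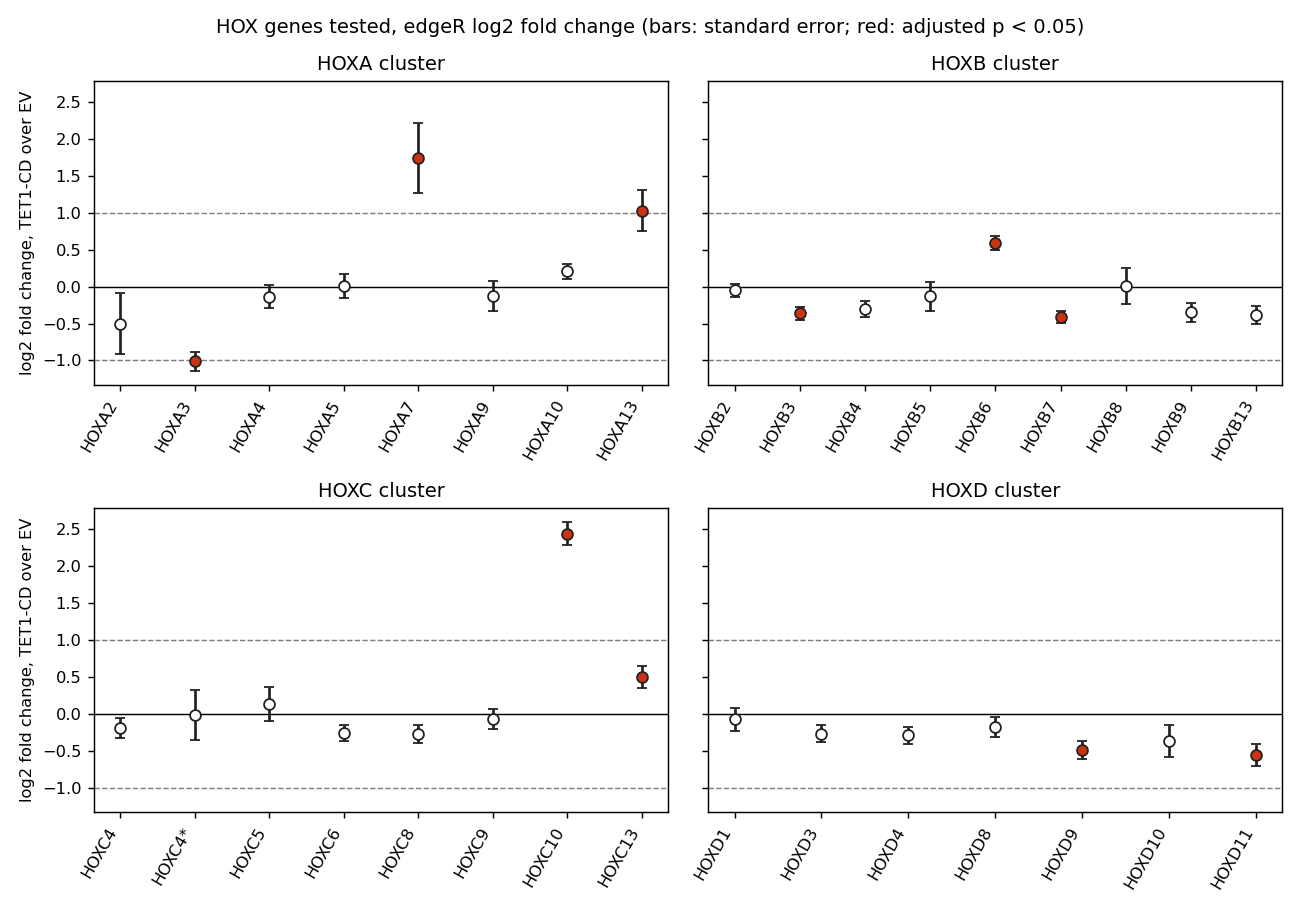
The log2 fold change of TET1-CD over EV for 32 of the 33 tested HOX genes, by cluster and in order of paralogue number, from edgeR. Bars are standard errors, red points have an adjusted p under 0.05, and dashed lines mark a fold change of 2; HOXC10 stood at 2.44 and HOXA3 at -1.01, and all 7 HOXD points were below 0.

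The posterior HOXC gene HOXC10, active in the lower trunk and hindlimb of the embryo, had the largest rise among the tested members. It lies on the plus strand of chromosome 12 (GRCh37), between 54378849 and 54384063. It had 47 and 34 counts under EV against 209 and 227 under TET1-CD, or 40.0 ± 4.72 and 219 ± 4.39 TMM-normalized counts (SD, n = 2 each). Both TET1-CD libraries were far above both EV libraries, and the 2 libraries of each group were close together. TET1-CD over EV gave a log2 value of 2.44 (SE 0.16) or 5.44-fold, at an edgeR adjusted p of 7.90e-06. Per length, HOXC10 moved from rank 29 to rank 6 among the 40 members, from a mean of 1.29 to 7.61 FPKM. It was called under all 11 alternative tests, including DESeq2 and the omission of any library, with log2 fold changes of 2.33 to 2.57.

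The HOXC10 counts came mostly from a protein-coding transcript of 2 exons, ENST00000303460, with 43.5, 32.2, 178 and 189 estimated counts. A shorter transcript without a defined coding sequence, ENST00000513413, was listed at 0 in EV replicates 1 and 2 but reached 24 and 35.5 in the TET1-CD replicates. Both transcripts were thus higher in both TET1-CD libraries. The division of a gene's counts among transcripts is an estimate, and it was unstable for the neighbour HOXC9, whose transcript ENST00000508190 took 124, 0, 230 and 90.8 counts.

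The genes around HOXC10 were examined next. HOTAIR, a long non-coding RNA whose gene overlaps HOXC11 on the opposite strand, had 0 counts in both EV libraries against 14 and 6 under TET1-CD, too few for the test. Against a floor of 3 counts for the EV mean, its mean normalized count was at least 3.43-fold higher, and at least 1.903-fold without TET1-CD replicate 1. HOXC11 had 0, 0, 2 and 7 counts, and HOXC-AS3, antisense at the start of HOXC10, had 0, 0, 4 and 0. HOXC12 was at 0. From the start of HOXC12 to the end of HOXC10 these genes span 35446 bp, and HOXC11 ends 7421 bp before HOXC10 begins. On the other side the deposited HOXC6 gene, given below, begins 344 bp after HOXC10 and spans HOXC9 on the same strand. HOXC9, 4615 bp from HOXC10 and also a posterior gene, had 235, 222, 230 and 201 counts. Its groups overlapped (log2 fold change -0.07, adjusted p = 0.779 from edgeR). HOXC13, the most posterior gene of the cluster and a regulator of hair keratins, had 122, 130, 175 and 179 counts. It rose by a log2 change of 0.50 (SE 0.15, edgeR adjusted p = 0.0387), 1.42-fold. With DESeq2, or without EV replicate 1 or either TET1-CD library, HOXC13 was not past the threshold. Its antisense gene HOXC13-AS had 13, 14, 31 and 23 counts, with an estimate of 1.01 on the log2 scale (adjusted p = 0.103). The use of strand in the counting is not stated. Reads of HOXC13 and HOXC13-AS where they overlap therefore cannot be told apart, nor those of HOXC11 and HOTAIR or of HOXC10 and HOXC-AS3. HOXC10 also overlaps the listed gene RP11-834C11.12 on its own strand.

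**Figure D4:**
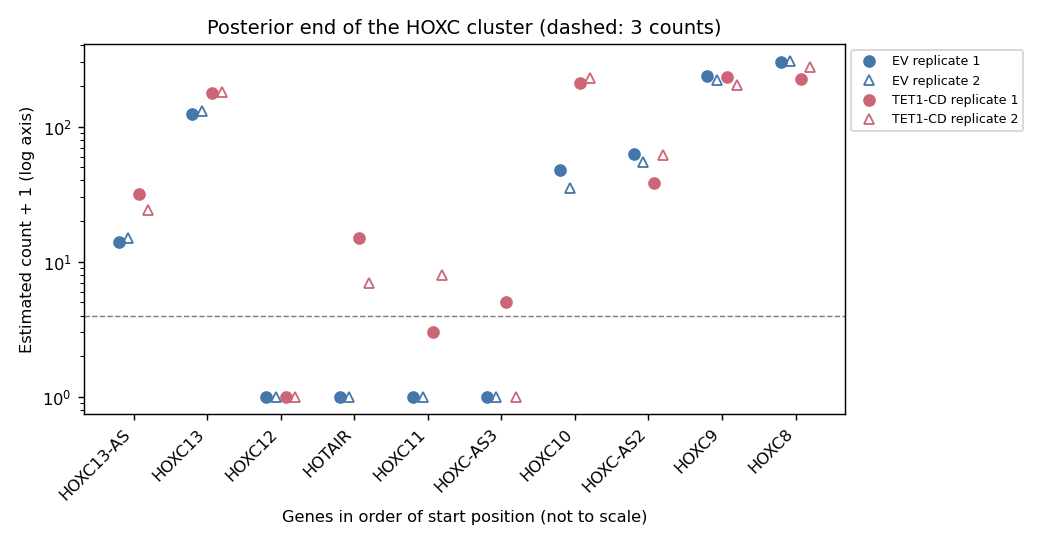
Estimated counts plus 1, on a log axis, of genes in the posterior end of the HOXC cluster, in order of start position and not to scale. Blue marks are EV and red marks TET1-CD libraries, and the dashed line stands at 3 counts; HOTAIR and HOXC11 were at 0 in both EV libraries, HOXC10 rose, and HOXC9 overlapped between the groups.

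The central HOXC genes did not pass the test. With single libraries omitted, the log2 fold change of HOXC8 ran from -0.41 (without EV replicate 1) to -0.15 (without EV replicate 2). HOXC6 had 282, 235, 209 and 218 counts, HOXC8 300, 306, 224 and 275, and HOXC4 (ENSG00000198353) 181, 156, 127 and 166. Both TET1-CD libraries of each, once normalized, were below both EV libraries, with log2 fold changes of -0.26, -0.27 and -0.19 and adjusted p of 0.125, 0.139 and 0.361 from edgeR. The second HOXC4 identifier (ENSG00000273266), with 21 to 24 counts, and HOXC5, with 45 to 53, overlapped between the groups. Summed over its 2 identifiers, HOXC4 had 205, 177, 148 and 189 counts.

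In the HOXA cluster the anterior HOXA3 fell by the test, and the central HOXA7 and the posterior HOXA13 rose. No test of position was made. HOXA3, an anterior gene known for the development of thymus and parathyroid, lies on chromosome 7 from 27145803 to 27192200 on the minus strand. It had 228 and 184 counts under EV against 92 and 110 under TET1-CD, or 204 ± 8.37 and 101 ± 4.85 TMM-normalized counts (SD, n = 2 each). The groups were well apart. It fell by a log2 change of 1.01 (SE 0.13) or 2.02-fold, at an edgeR adjusted p of 7.17e-04, and it moved from rank 9 to rank 23 per length. Its adjusted p was under 0.05 in all 11 alternative tests, but its fold change was close to the limit of 2, with log2 values of -1.06 to -0.96. The DEG call was lost without EV replicate 1 or without TET1-CD replicate 1 and when scaling by library size only.

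Both main HOXA3 transcripts were lower in TET1-CD libraries. ENST00000317201, which carried most of the counts, had 193, 156, 71.7 and 96.4, and ENST00000522456, whose promoter is shown above, had 30.8, 24.1, 12.01 and 9.27. The deposited HOXA3 gene spans HOXA4, HOXA5 and HOXA6 on the same strand and is crossed by HOXA-AS2 and HOXA-AS3 on the opposite strand. The neighbour HOXA4 had 122, 123, 96 and 126 counts and HOXA5 103, 99, 103 and 99, both with overlap between the groups (log2 fold changes -0.13 and 0.01).

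HOXA13, the most posterior gene of the cluster, acts in the limb tips and in the urogenital and hind end of the embryo, and it rose. It had 26 and 21 counts under EV against 48 and 47 under TET1-CD. The pair of libraries agreed closely in each group, at 23.3 ± 0.94 and 47.9 ± 4.47 TMM-normalized counts (SD, n = 2 each). TET1-CD over EV gave a log2 value of 1.03 (SE 0.28, edgeR adjusted p = 0.0267), 2.04-fold. HOTTIP, the long non-coding RNA that begins beside HOXA13 on the opposite strand, had 1, 0, 3 and 5 counts.

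HOXA7, a central gene, had 6 and 14 counts under EV against 25 and 43 under TET1-CD. The EV libraries differed by more than 2-fold from each other, yet both were below both TET1-CD libraries. TET1-CD over EV gave a log2 value of 1.75 (SE 0.47, edgeR adjusted p = 0.0283), 3.36-fold, from a low level of 0.39 FPKM in EV. The calls of HOXA7 and HOXA13 rested on few counts. With DESeq2, or without EV replicate 1, TET1-CD replicate 1 or TET1-CD replicate 2, both lost an adjusted p under 0.05, and HOXA13 also lost it without EV replicate 2. A minimum of 10 counts in every library removed HOXA7 from the test. Over all alternatives the adjusted p reached 0.267 for HOXA7 and 0.229 for HOXA13, and their log2 fold changes ran from 1.16 to 2.59 and from 0.94 to 1.12.

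The other tested HOXA genes did not pass the test. HOXA10, a posterior gene active in the reproductive tract, was nearest, with 280, 242, 288 and 309 counts and a log2 fold change of 0.21 (adjusted p = 0.177 from edgeR), and both normalized TET1-CD values lay above both EV values. HOXA2 (25, 24, 22 and 12 counts) and HOXA9 (83, 99, 72 and 95) overlapped between the groups.

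In the HOXB cluster a single gene rose, with lower estimates around it. HOXB6, a central gene, had 302 and 266 counts under EV against 409 and 441 under TET1-CD, or 283 ± 5.91 and 428 ± 10.8 TMM-normalized counts (SD, n = 2 each). The groups were far apart for their spread. TET1-CD over EV gave a log2 value of 0.60 (SE 0.09, edgeR adjusted p = 0.00206), 1.51-fold, and HOXB6 moved from rank 5 to rank 2 per length, where its TET1-CD libraries (13.31 and 11.96 FPKM) enclosed those of HOXB2 (12.9 and 12.4). It passed an adjusted p of 0.05 in all 11 alternative tests, with 0.0354 as the highest value.

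By the estimated division of counts, the rise of HOXB6 was in 1 of its 2 main transcripts. These 2 transcripts cover nearly the same span, and the accuracy of the division was not tested. ENST00000225648, with 4 exons, had 170 and 160 counts under EV against 307 and 309 under TET1-CD. ENST00000484302, with 3 exons, had 126, 96.1, 91.6 and 127, with overlap between the groups.

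**Figure D5:**
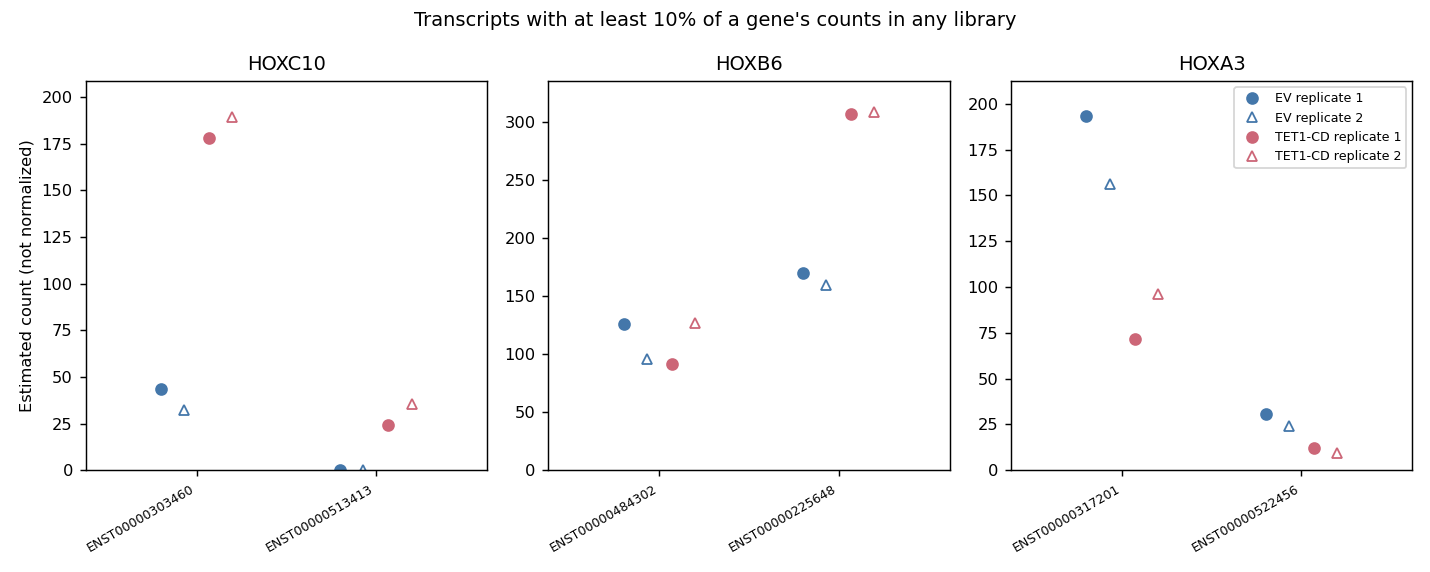
Estimated counts, not normalized, of the transcripts that carried at least 10% of the counts of HOXC10, HOXB6 or HOXA3 in any library. Blue marks are EV and red marks TET1-CD libraries; both HOXC10 transcripts were higher and both HOXA3 transcripts lower in TET1-CD cells, while ENST00000225648 alone was higher for HOXB6.

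HOXB7 and HOXB3 fell. HOXB7, the HOX gene with the highest level per length, had 858 and 819 counts under EV against 581 and 673 under TET1-CD, a log2 change of -0.41 (SE 0.08, edgeR adjusted p = 0.00632). HOXB3, an anterior gene of the hindbrain, had 500, 412, 322 and 380 counts and a log2 change of -0.36 (SE 0.09, edgeR adjusted p = 0.0199). In both genes the TET1-CD libraries were below the EV libraries. The HOXB3 gene as deposited overlaps HOXB4, HOXB5 and HOXB6 on its strand, and HOXB6 moved the opposite way. HOXB3 was not past the adjusted p with DESeq2 or without either TET1-CD library, and HOXB7 was not without TET1-CD replicate 1, where its adjusted p was 0.0955.

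HOXB4, HOXB9 and HOXB13 also had both TET1-CD libraries below both EV libraries and came near the threshold. All 3 passed it when no filter was used. HOXB4, known from blood stem cells, had 399, 339, 303 and 285 counts and a log2 fold change of -0.31 (adjusted p = 0.0742 from edgeR). HOXB9 had 297, 270, 186 and 257 counts (-0.35, adjusted p = 0.0782), and HOXB13, a gene of the prostate and hind gut, 192, 184, 134 and 152 (-0.38, adjusted p = 0.0618). HOXB2 (447, 394, 390 and 416 counts), HOXB5 (82, 60, 60 and 68) and HOXB8 (78, 57, 48 and 87) overlapped between the groups, with log2 fold changes between -0.13 and 0.01.

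All 7 tested HOXD genes had both normalized TET1-CD values below both EV values, as 30.2% of all genes tested had. For HOXD1 the nearest libraries stood at 96.84 (TET1-CD) and 96.89 (EV), so its place in this count hangs on the scaling. By adjusted p, 2 of the 7 were lower, as 9.61% of all genes were. HOXD9, a posterior gene of trunk and limb, had 208, 190, 135 and 145 counts and fell by 0.49 on the log2 scale (SE 0.12, edgeR adjusted p = 0.0205). HOXD11, a posterior gene of forearm and kidney development, had 165, 147, 91 and 119 counts and fell by 0.56 (SE 0.14, edgeR adjusted p = 0.0230). Neither reached a fold change of 2. HOXD9 and HOXD11 lost the adjusted p with DESeq2 and without either TET1-CD library.

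The remaining HOXD genes gave log2 fold changes of -0.07 to -0.37, none past the test. HOXD4 had 236, 220, 167 and 203 counts (adjusted p = 0.114 from edgeR), HOXD3 217, 174, 151 and 170 (0.1504), and HOXD10 71, 58, 42 and 57 (0.265). HOXD8 had 184, 160, 129 and 173 counts (0.406). HOXD1, the most anterior member, had 105, 90, 91 and 92 counts (0.789) and differed least, with normalized EV values of 96.9 and 97.1 against 96.8 and 87.6.

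By position, the 7 tested anterior genes had a median log2 fold change of -0.27, and HOXA3 and HOXB3 fell by the test. Of 15 tested central genes, 5 were higher and 10 lower (median -0.13), with HOXA7 and HOXB6 up and HOXB7 down by the test. Of 11 tested posterior genes, 4 were higher and 7 lower (median -0.12), and HOXC10, HOXA13 and HOXC13 rose while HOXD9 and HOXD11 fell. By adjusted p, 28.6% of anterior genes were lower, against 13.3% higher and 6.67% lower of central genes. Among posterior genes 27.3% were higher and 18.2% lower. Of all genes tested, 10.0% were higher and 9.61% lower by adjusted p, and by sign alone 7314 were higher and 7259 lower. Paralogues of the same number did not all share a direction. HOXC10 rose with a log2 fold change of 2.44, while HOXA10 had 0.21 and HOXD10 -0.37. HOXC13 and HOXA13 rose, while HOXB13 had -0.38. HOXB7 fell where HOXA7 rose, and HOXA3 and HOXB3 fell while HOXD3 had -0.27. HOX paralogues are similar in their homeobox, and genes within a cluster overlap. Of the 40 members, 37 overlap another listed gene, 21 of them another member and 27 a gene on the opposite strand.

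The partners and regulators of HOX genes were read from the same fit, and none of the genes in the lists below was called a DEG. By adjusted p alone, 10.0% of all genes tested were higher and 9.61% lower, and each list's counts stand beside these shares. Of 9 cofactor genes, 7 were tested. MEIS1 rose, with 139, 106, 170 and 173 counts (log2 fold change 0.51, adjusted p = 0.0281 from edgeR), whereas PBX2 (812, 677, 518 and 588 counts, -0.41, adjusted p = 0.00415) and MEIS3 (194, 168, 110 and 112 counts, -0.69, adjusted p = 0.00604) fell. PBX3 had 667 to 762 counts.

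Among 13 Polycomb genes, all tested, 2 fell, among them CBX2, a reader of the Polycomb histone mark, by 0.40 on the log2 scale (adjusted p = 0.0208 from edgeR). The other 11 did not pass the test. JARID2, next by p, had a log2 fold change of -0.22 (adjusted p = 0.121). EZH2, which writes the Polycomb mark, had 983, 837, 904 and 1075 counts. Of 11 trithorax group genes and other HOX chromatin regulators, 10 were tested and none passed. WDR5 was nearest, with 0.18 (adjusted p = 0.0517), followed by MEN1 with -0.24 (0.0624) and KDM6B with -0.23 (0.105).

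Of 12 caudal and retinoic acid regulators, 7 were tested, and 3 fell (42.9%, beside 9.61% of all genes tested). These were CRABP2, a carrier of retinoic acid, with 104, 112, 54 and 72 counts (log2 fold change -0.77, adjusted p = 0.0204 from edgeR), the receptor RARG (-0.40, adjusted p = 0.0105) and the retinoic acid hydroxylase CYP26B1 (-0.29, adjusted p = 0.0204). CDX1, CDX2 and CDX4, caudal factors that activate HOX genes in the embryo, were listed at 0 in all libraries.

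Of 17 antisense and long non-coding RNAs of the HOX clusters, 10 were tested and none passed. HOXC13-AS, given above, had the smallest p, followed by HOXA-AS3 (14, 16, 10 and 3 counts, adjusted p = 0.210) and HOXB-AS1 (8, 7, 10 and 16 counts, adjusted p = 0.315). HOXD-AS1 was the most abundant by count, with 519 to 621. Of 6 microRNA genes, MIR10A had 10, 7, 10 and 3 counts and the other 5 were at 0.

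Of 11 genes flanking the clusters, 6 were tested and 3 fell (50%, beside 9.61% of all genes tested). These were HIBADH beside HOXA (1675, 1563, 1133 and 1252 counts, log2 fold change -0.43, adjusted p = 0.00158 from edgeR), CALCOCO1 beside HOXC (480, 421, 267 and 336 counts, -0.57, adjusted p = 0.00338) and KIAA1715 beside HOXD (2063, 1533, 1353 and 1475 counts, -0.32, adjusted p = 0.0125). SKAP1, beside HOXB, had 3, 0, 11 and 9 counts and was not tested.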

How the data were processed

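Poly(A)-selected or rRNA-depleted RNA (the labels name both) of T24 cells, with 2 EV and 2 TET1-CD libraries, was sequenced on a HiSeq instrument. The authors deposited, for each library, expected counts (estimated fragments that need not be whole) and FPKM values per transcript, with GRCh37 (hg19) coordinates. The submitters' processing notes list cutadapt 1.9.1, HISAT2 2.0.1, HTSeq 0.6.1 and DESeq2. The tool that made the non-whole counts and the annotation release are not given in the sources used here.

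For each gene identifier, the counts of its transcripts were added up and rounded. FPKM was used only for levels per length. Totals were 17442143 to 20295266 fragments. Genes passing filterByExpr (14573) were compared with edgeR 4.0.16 in R 4.3.3 (glmQLFit and glmQLFTest, TMM factors 0.993 to 1.005, no block), with Benjamini-Hochberg adjustment over all of them. SE is the size of the log2 fold change over the square root of F. A DEG had an adjusted p under 0.05 and a fold change of at least 2. A count of 3 was taken as the floor, and it covers counting error only. On simulated data with 14573 genes, the test recovered 84% of 2-fold and 97% of 4-fold changes. Recovery meant an adjusted p under 0.05 in the right direction, without the fold change threshold. These shares are over genes of all levels, not over genes with few counts. Each simulated gene varied as the trend of all genes at its level, with the same spread in both groups. Genes that vary more than the trend were not covered, so the shares may be too high for these data.

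The members and the gene lists were chosen with earlier results of these data known. The tested HOX genes are named, except that some genes are not reported here, with untested ones given by count, and in each list the members called and the 3 with the smallest p; others named for their level or place (PBX3, EZH2, the CDX genes, HOXD-AS1, HOTAIR, HOTTIP, HOXC-AS3, MIR10A and SKAP1) were chosen after their values were seen. Alternatives were DESeq2 1.42.0, limma-voom (limma 3.58.1), a replicate block, RLE normalization, scaling by library size alone, a minimum of 10 counts in every library, testing all genes with no filter, dropping the fold change threshold, unadjusted p, log2(FPKM + 0.1) and the omission of each library. Promoter sequences are from RefSeq.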

Additional observations from a re-analysis of the deposited data

How the results depend on the processing

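DEG counts among HOX genes moved with the test. In place of 3 higher and 1 lower, DESeq2 gave 1 higher and 1 lower, and scaling by library size only gave 0 lower. Without a fold change threshold there were 5 higher and 5 lower. Omission of each library in turn gave 1 to 2 higher and 0 to 1 lower, and a median log2 fold change of -0.23 to -0.13; where it left a single library in a group, that library was assumed to vary like the others. DESeq2 kept 4 of the 10 members past the adjusted p (HOXC10, HOXA3, HOXB6 and HOXB7), and the omission of TET1-CD replicate 1 kept 3 (HOXC10, HOXA3 and HOXB6). The same replicate numbers did not pair the libraries (correlation of deviations 0.00713). A replicate block gave 3 higher and 1 lower, kept all 10 and added HOXB4 and HOXB9. Testing all genes with no filter added HOXB4, HOXB9 and HOXB13, and omitting EV replicate 1 added HOXB9, HOXB13 and HOXC8. The bound for HOTAIR ran from 1.903 to 4.96 with single TET1-CD libraries omitted, an alternative chosen after the values were seen. Estimates near 0 changed sign. HOXB8 was at -0.021 with limma-voom and -0.0145 with the block. With single libraries omitted, HOXB8 ran from -0.39 to 0.31, HOXA9 from -0.36 to 0.13, HOXA5 from -0.094 to 0.12 and HOXC9 from -0.25 to 0.10. The cause of these changes was not tested. HOXA2, HOXA7, HOXA13, the second HOXC4 identifier and the 7 untested members had under 50 counts in each library, which limits the precision of their values.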
